A study of Mus musculus with 2 samples.

Results

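The thrombospondin family of the mouse has 5 genes, *Thbs1*, *Thbs2*, *Thbs3*, *Thbs4* and *Comp*, and the family was taken here by gene symbol. All 5 are among the 23628 genes listed in 2 RNA-sequencing libraries of SOX9-GFPhi chondrocytes, named here replicate 1 and replicate 2. The cells came from femoral heads of pups at postnatal day 7 that carry green fluorescent protein in the *Sox9* gene. GFP-high cells that lacked CD31, Ter119 and CD45 were grown from low density as chondrospheres, in methylcellulose at lowered oxygen. The medium held serum, FGF2, BMP4, IGF1, LIF and TGF-β1, and all of this applies to both libraries. The reporter marks any cell that uses *Sox9*. Each pup was harvested as a separate replicate, but the sources used here do not give the pups or chondrospheres behind a library or its days in culture, so the spread between the libraries may be technical in part. The libraries hold 1 condition, so levels and their spread are described and no test between groups was possible. Paired values are given with replicate 1 first, unless a replicate is named.

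Thrombospondins are large secreted glycoproteins that bind calcium, collagens and other matrix proteins, and cell surface receptors. Thrombospondin-1 and thrombospondin-2 form trimers and carry type 1 repeats, which inhibit the growth of blood vessels. Thrombospondin-3, thrombospondin-4 and COMP (cartilage oligomeric matrix protein) form pentamers and lack these repeats. COMP is abundant in cartilage and tendon, where it binds collagens II and IX, matrilins and fibronectin, and mutations in it cause pseudoachondroplasia, in which the protein accumulates in the endoplasmic reticulum of chondrocytes.

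The labelled cell type was checked first. All 11 of the chondrocyte markers chosen reached at least 1 CPM (counts-per-million, relative to the total over all genes) in both libraries, against 50.3% of all genes listed. *Col2a1*, which encodes collagen II, had 148953 and 100682 CPM, and *Sox9* had 252 and 279 CPM. The step between the lowest CPM values implies about 43300000 reads on genes for the first library and 42200000 for the other, so that 3 reads, the smallest level read here as present, correspond to 0.0693 and 0.0712 CPM. This limit covers counting error only. The libraries differed from each other: the 10 highest genes took 43.4% and 34.7% of the total. Over the 12631 genes that averaged 1 CPM or more, the log2 ratio (replicate 2 over replicate 1) had a median of 0.30, and differences between the libraries are therefore given relative to it.

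The genes have similar sequences, so the transcripts were first compared to see whether a read of 50 bases could belong to more than 1 of them. Over the longest coding transcript of each gene in GENCODE M21 (build GRCm38), the longest identical run of each of the 10 pairs of members was between 15 and 26 bases. The length of 26 bases was reached by *Comp* with *Thbs4* and by *Thbs1* with *Thbs2*, and both runs lie in coding exons. They are shown because they are the longest identical runs between members. The first lies at chr8:70379696-70379721 (plus strand, exon 15 of *Comp*) and chr13:92755377-92755402 (minus strand, exon 18 of *Thbs4*), and the second at chr2:118120893-118120918 (plus strand, exon 15 of *Thbs1*) and chr17:14676284-14676309 (minus strand, exon 15 of *Thbs2*).
Comp and Thbs4: CAGACCATGAACAGTGACCCTGGCCT
Thbs1 and Thbs2: GGAGACCGCTGTGACAACTGCCCCTA
No window of 50 bases in any of the 5 transcripts occurred in a transcript of another gene on the same strand. On the opposite strand, 137 of the 3141 windows of *Thbs3* (4.36%) matched *Mtx1*, the gene of a mitochondrial import protein, and 94 of the 5799 windows of *Thbs1* (1.62%) matched the long noncoding RNA *Gm29233*. The libraries are stranded, but the sources used here do not say whether counting used the strand. *Mtx1* had 18.7 and 20.9 CPM, and *Gm29233* had 10.6 and 16.2 CPM.

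*Comp* and *Thbs1* were among the most abundant transcripts of the chondrospheres, *Thbs2* and *Thbs3* were present at much lower levels, and *Thbs4* was at the limit of detection. *Comp*, on chromosome 8 from 70373558 to 70382066 of GRCm38, had 11098 and 7669 CPM. *Thbs1*, on chromosome 2 from 118111876 to 118127133, had 4022 and 5404 CPM. The gene with more reads was *Comp* in both libraries, and by CPM *Comp* ranked 6 and 7 among all genes in replicates 1 and 2, while *Thbs1* ranked 18 and 12. *Thbs2*, on chromosome 17 from 14665500 to 14694235, had 133 and 209.5 CPM. *Thbs3*, on chromosome 3 from 89215180 to 89226837, had 50.7 and 55.8 CPM, the smallest spread of the 4 genes above the limit of 3 reads. *Thbs4* spans bases 92751590 to 92794818 of chromosome 13, and its 0.0231 CPM in replicate 1 correspond to 1 read, while it was listed at 0 in replicate 2, which at the limit of 3 reads allows up to 0.0712 CPM. Thus 4 of the 5 genes reached at least 1 CPM in both libraries, against 50.3% of all genes listed.

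**Figure D1:**
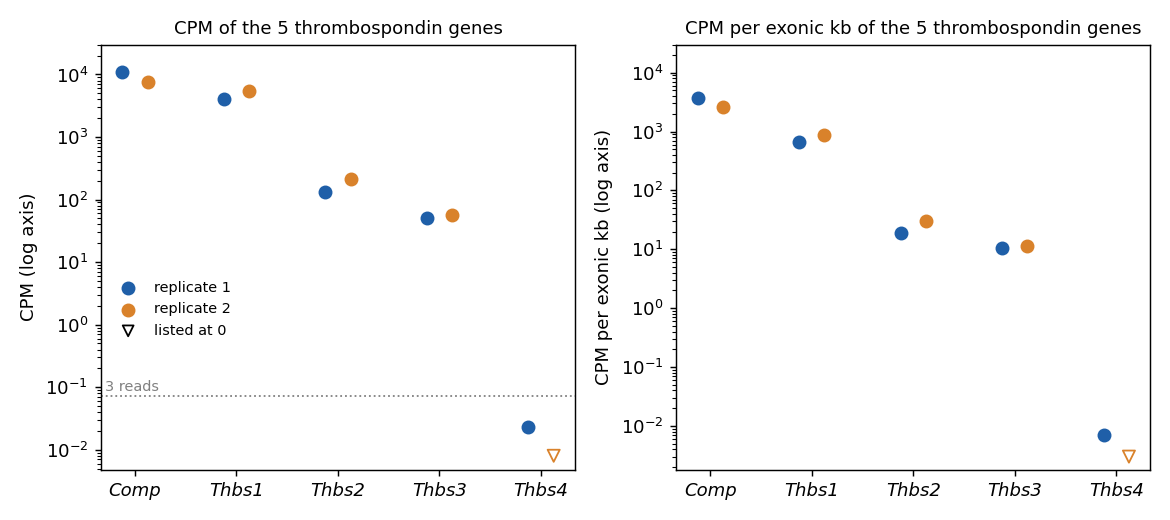
Level of each thrombospondin gene in replicate 1 (blue) and replicate 2 (orange), in CPM (left) and in CPM per kilobase of exon (right), both on log axes. A triangle marks a value listed at 0, and a dotted line in the left panel only marks the level of 3 reads. The order *Comp*, *Thbs1*, *Thbs2*, *Thbs3*, *Thbs4* is the same in both libraries and on both scales. In the left panel only *Thbs4* lies below the dotted line.

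A longer transcript gives more reads at the same number of molecules, so levels of different genes were compared after dividing the CPM by the length of all annotated exons, which was 2967 bases for *Comp*, 6073 for *Thbs1*, 7003 for *Thbs2*, 4823 for *Thbs3* and 3289 for *Thbs4*. On this scale *Comp* had 3740.3 CPM per kilobase in replicate 1 and 2585 in replicate 2, a mean of 3163 ± 817 (SD, n = 2). *Thbs1* had 662 and 889.8 CPM per kilobase, a mean of 776 ± 161 (SD, n = 2). By their mean on this scale *Comp* ranked 8 and *Thbs1* ranked 38 of 22967 genes with a length, while *Thbs2* ranked 1212 and *Thbs3* ranked 2654.

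The gap between *Comp* and *Thbs1* was wider in replicate 1 than in replicate 2. Per kilobase, *Comp* exceeded *Thbs1* by 5.65-fold and 2.91-fold, and the log2 ratio averaged 2.02 ± 0.68 (SD, n = 2). *Thbs1* in turn exceeded *Thbs2* by 35.0-fold and 29.7-fold, a log2 ratio of 5.01 ± 0.16 (SD, n = 2). These 2 trimer-forming genes thus stood in a similar proportion in both libraries although each was higher in CPM in replicate 2.

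*Thbs2* and *Thbs3* were the closest neighbours in the order. *Thbs2* had 18.9 CPM per kilobase in replicate 1 and 29.9 in replicate 2, and *Thbs3* had 10.5 and 11.6. Their means were 24.4 ± 7.76 and 11.0 ± 0.752 CPM per kilobase (SD, n = 2), and the values of the genes did not overlap. The log2 ratio of *Thbs2* to *Thbs3* was 1.11 ± 0.37 (SD, n = 2), and it was 0.50 in replicate 1 and 1.02 in replicate 2 when the longest coding transcript was used as the length. The ratio exceeded its spread between the libraries, but with 2 libraries the spread is itself poorly known. Of the exonic bases of *Thbs3*, 6.59% also lie in exons of *Mtx1* on the other strand.

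*Comp* exceeded *Thbs2* by 197-fold per kilobase in replicate 1 and 86.4-fold in replicate 2, and it exceeded *Thbs3*, another pentamer gene, by 356-fold and 223-fold. Against the single read of *Thbs4* in replicate 1 the ratio of *Comp* was 532436-fold per kilobase, with an exact Poisson 95% interval from the read count of 95542 to 21025600. In replicate 2, *Comp* was at least 119471-fold higher than *Thbs4*, taking *Thbs4* at 3 reads. The pentamer genes therefore covered both ends of the family's range.

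Of the summed CPM per kilobase of the 5 genes, *Comp* took 84.4% in replicate 1 and 73.5% in replicate 2, a mean of 79.0% ± 7.69 (SD, n = 2). *Thbs1* took 14.9% and 25.3%. *Thbs2* took 0.427% and 0.851%, and *Thbs3* took 0.237% and 0.329%. The 5 genes together summed to 15303 and 13338 CPM, which is 1.53% and 1.33% of the total.

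**Figure D2:**
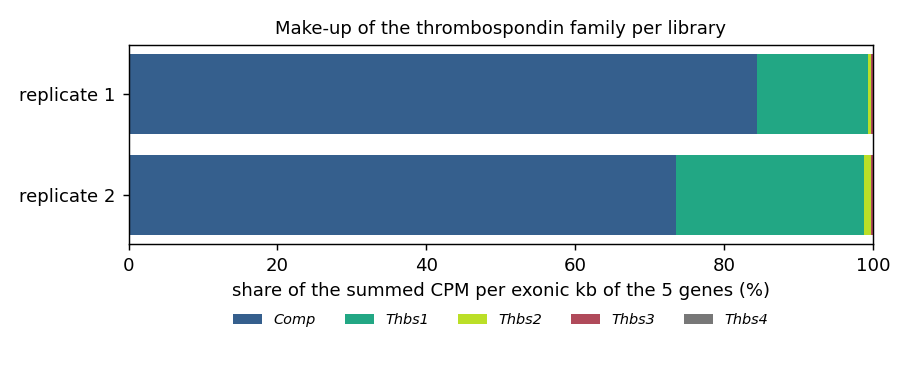
Share of each gene in the summed CPM per kilobase of exon of the 5 thrombospondin genes, as a stacked bar of 100% for each library. *Comp* takes 84.4% in replicate 1 and 73.5% in replicate 2 and *Thbs1* most of the remainder, while *Thbs4* is too small to be seen.

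The difference between the libraries was examined next, as a description of 2 replicates. After adding 0.1 CPM to each value and taking off the median of all genes, the log2 ratio (replicate 2 over replicate 1) came to -0.84 for *Comp*, 0.12 for *Thbs1*, 0.35 for *Thbs2* and -0.17 for *Thbs3*. No member was past 2-fold in either direction among the 4 that could be placed, while 7.43% of the 12631 genes were more than 2-fold higher in replicate 2 and 6.06% more than 2-fold lower. The value of *Comp* was the farthest from 0 of the 4, and the median distance from 0 over all genes tested was 0.30. The direction of *Thbs3* depended on the centring, since its log2 ratio was 0.14 before the median was taken off. *Thbs4* had at most 1 read in each library and was given no ratio.

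*Comp* was lower in replicate 2, and so were most of the chondrocyte markers. Of these, 10 of 11 had log2 ratios below that of the median gene, with a median of -0.71. More than 2-fold lower were 3 of the 11, against 6.06% of all genes, and 0 were more than 2-fold higher, against 7.43%. The 3 were *Matn3* at -4.10, *Snorc* at -1.32 and *Col9a1* at -1.09. *Sox9* lay close to the median gene at -0.16, and *Hapln1* was above it at 0.16. The summed level of the markers was 188223 and 132200 CPM, of which *Col2a1* gave 148953 and 100682 CPM. The part of the lower chondrocyte markers in the difference of *Comp* was not tested. Per kilobase, *Comp* stood at 0.232 of the level of *Col2a1* in replicate 1 and at 0.237 in replicate 2, so the log2 ratio between these 2 genes differed by 0.03 between the libraries. *Comp* exceeded *Acan*, the gene of the proteoglycan aggrecan, by 1.97-fold and 1.61-fold, and *Sox9* by 61.4-fold and 38.4-fold. The ratio of *Thbs1* to *Col2a1* was farther apart, at 0.0411 in replicate 1 and 0.0817 in replicate 2. Fewer chondrocytes in a library and less RNA of these genes in each cell cannot be told apart in bulk samples.

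The genes nearest to each member in CPM over both libraries were found by the distance of their log2 values (with 0.1 CPM added), over 2 libraries only. *Comp* lay nearest to *mt-Co1* at a distance of 0.057 and to *Col11a1*, a chain of collagen XI, at 0.20. *Thbs1* lay nearest to *Eef1a1* at 0.22 and *Ctsd* at 0.56. *Thbs2* lay nearest to *Ptbp1* at 0.030 and *Trim35* at 0.034, and *Thbs3* to *Selenom* at 0.011 and *Yipf4* at 0.016. So few libraries cannot single out genes of like pattern, and these neighbours describe the level alone.

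The members also differ in their coding sequence. The proteins translated from the longest coding transcripts have 755 residues in COMP, 1171 in thrombospondin-1, 1172 in thrombospondin-2, 956 in thrombospondin-3 and 963 in thrombospondin-4. COMP was most like thrombospondin-4, with 70.8% of 751 aligned residues identical, although *Comp* was the highest and *Thbs4* the lowest of the genes. Identity was 66.8% between COMP and thrombospondin-3, 63.0% between thrombospondin-1 and thrombospondin-2, and 55.8% between COMP and thrombospondin-1. In the last 450 residues, which hold the conserved C-terminal part, identity was 81.2% between COMP and thrombospondin-4 and 61.8% between COMP and thrombospondin-1. The hexapeptide CSVTCG of the type 1 repeats, a binding site of the receptor CD36, occurs 2 times in thrombospondin-1, 2 times in thrombospondin-2 and not in the other members. The tetrapeptide KRFK, through which thrombospondin-1 can activate latent TGF-β, occurs in thrombospondin-1 alone.

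The calcium-binding type 3 repeats hold the tripeptide arginine-glycine-aspartate (RGD), the site that integrins αV and α5 recognise in many matrix proteins, and its place differs among the members. RGD occurs in 4 of the 5 proteins. In COMP it starts at residue 365, and thrombospondin-4 has it at the aligned position, residue 564, and once more at residue 138, outside these repeats. The same codons of the other 3 genes read glutamate-glycine-aspartate. The coding sequences at this site are shown with the 3 aligned codons in capitals and 8 codons on each side, 57 bases on the coding strand, because they separate *Comp*, the highest member, from *Thbs1*, the next. They lie at chr8:70377196-70377252 in *Comp* (plus strand, exon 10 of 19), chr2:118120935-118120991 in *Thbs1* (plus strand, exon 15 of 22), chr17:14676211-14676267 in *Thbs2* (minus strand, exon 15 of 22), chr3:89223102-89223158 in *Thbs3* (plus strand, exon 14 of 23) and chr13:92762764-92762820 in *Thbs4* (minus strand, exon 13 of 22).
Comp: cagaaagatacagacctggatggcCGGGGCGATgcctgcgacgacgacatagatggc
Thbs1: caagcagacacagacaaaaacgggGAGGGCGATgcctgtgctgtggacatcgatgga
Thbs2: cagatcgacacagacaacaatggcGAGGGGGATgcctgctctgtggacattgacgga
Thbs3: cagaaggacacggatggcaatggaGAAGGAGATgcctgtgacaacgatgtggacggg
Thbs4: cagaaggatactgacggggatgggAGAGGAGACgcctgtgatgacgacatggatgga

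Thrombospondin-1 and thrombospondin-2 have their RGD farther towards the C-terminus, at residues 927 and 928. There the other 3 genes have codons for valine-glycine-aspartate. The 57 coding bases of this site cross an exon junction in all 5 genes, and are shown with the same codons in capitals. With the intron they span chr8:70379200-70379434 in *Comp*, chr2:118122665-118122914 in *Thbs1*, chr17:14671460-14673159 in *Thbs2*, chr3:89224138-89224326 in *Thbs3* and chr13:92756546-92757937 in *Thbs4*.
Comp: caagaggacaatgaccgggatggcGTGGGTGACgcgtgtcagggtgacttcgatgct
Thbs1: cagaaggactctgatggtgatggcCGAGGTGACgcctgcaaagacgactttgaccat
Thbs2: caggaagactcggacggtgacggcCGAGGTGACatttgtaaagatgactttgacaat
Thbs3: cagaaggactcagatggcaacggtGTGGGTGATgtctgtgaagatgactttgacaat
Thbs4: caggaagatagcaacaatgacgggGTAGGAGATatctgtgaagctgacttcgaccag

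Among the 17 genes listed as thrombospondin receptors, 15 reached at least 1 CPM in both libraries, against 50.3% of all genes listed. The others were *Itga4*, at 0.0924 and 0.593 CPM, and *Cd36*. *Cd36*, the receptor of the type 1 repeats, was listed at 0 in both libraries. *Cd47*, the receptor of the C-terminal part of thrombospondin-1, had 37.0 and 28.7 CPM. *Lrp1* and *Calr*, whose products together bind the N-terminal part of thrombospondin-1, were high at 1076 and 1692 CPM for *Lrp1* and 881 and 1357 CPM for *Calr*.

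The genes of the RGD-binding integrins were present, and some were over 2-fold higher in replicate 2 while others were not. *Itgav*, the gene of integrin αV, had 88.0 and 360.1 CPM, and *Itgb3*, its β3 partner, had 18.8 and 108 CPM. *Itgb5*, its β5 partner, had 363 and 439 CPM, with a centred log2 ratio of -0.03. *Itga5*, the gene of the α5 chain, had 107 and 266 CPM. *Itgb1*, the β1 chain that pairs with it, had 408 and 759.9 CPM. After centring, *Itgav* (log2 ratio 1.73), *Itgb3* (2.22) and *Itga5* (1.02) were over 2-fold higher in replicate 2. So was *Itga3* (1.15), a gene of the receptor list that is not counted here among the RGD-binding integrins. These are 4 of the 15 receptor genes tested, against 7.43% of all genes, and 0 of the 15 were over 2-fold lower. The median log2 ratio of the 15 was 0.32. *Cacna2d1*, the receptor gene for thrombospondins at synapses, had 32.1 and 70.6 CPM.

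The genes of the matrix partners of COMP had the highest levels of the partner lists, and most were lower in replicate 2. They share 6 genes with the chondrocyte markers. All 16 reached at least 1 CPM in both libraries, against 50.3% of all genes listed, and their median per kilobase was 309 and 149.9 CPM, against 3.26 and 4.01 CPM over all genes tested. After centring, 15 of the 16 were lower in replicate 2, 6 of them by more than 2-fold (6.06% of all genes), and 1 was more than 2-fold higher. *Comp* itself, at -0.84, lay beside the list's median of -0.82.

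*Col9a1*, *Col9a2* and *Col9a3*, the chains of collagen IX, which coats collagen II fibrils, had log2 ratios of -1.09, -0.81 and -0.50, and *Comp* exceeded *Col9a1* per kilobase by 10.1-fold in replicate 1 and 12.0-fold in replicate 2. *Matn3*, which encodes matrilin-3, had 741 and 53.1 CPM, and *Matn1*, which encodes matrilin-1, had 902 and 29.2 CPM. *Matn4*, which encodes matrilin-4, had 14.2 and 9.84 CPM, with a log2 ratio of -0.82. The log2 ratio of *Comp* to *Matn3* per kilobase was 3.93 in replicate 1 and 7.20 in replicate 2, and that of *Comp* to *Matn1* was 3.05 and 7.47. *Col14a1*, the gene of collagen XIV, had 62.2 and 2.37 CPM, with a log2 ratio of -4.96, while *Col12a1*, the gene of the related fibril-associated collagen XII, had 76.7 and 219 CPM and was the 1 member of the list that was more than 2-fold higher in replicate 2.

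**Figure D3:**
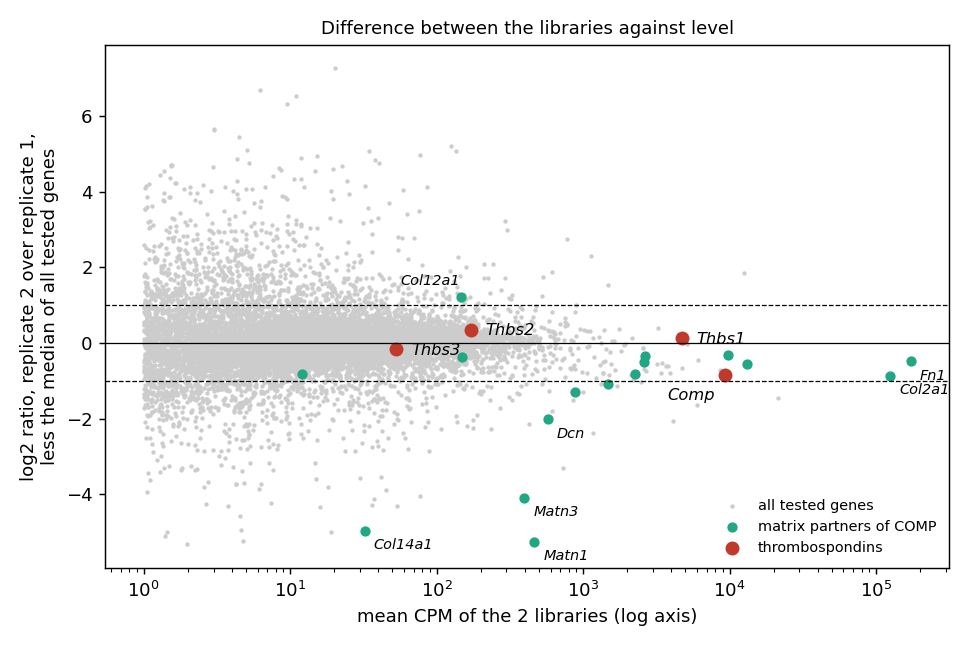
Log2 ratio of replicate 2 to replicate 1, less the median of all tested genes, against the mean CPM (log axis) for 12631 genes (grey), the 16 matrix partners of COMP (green) and the 4 thrombospondin genes that could be placed (red), with dashed lines at 2-fold. *Comp* lies at -0.84 between the lines, whereas *Matn1*, *Matn3* and *Col14a1* lie below -4.

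Of the 10 proteases listed as cutting thrombospondins, 6 reached at least 1 CPM in both libraries, a share close to the 50.3% of all genes listed. *Adamts7* and *Adamts12*, the enzymes known for cutting COMP, were low in replicate 1, with 0.285 CPM for *Adamts7* and 0.693 CPM for *Adamts12*. In replicate 2 *Adamts7* had 0.641 CPM and *Adamts12* had 11.7 CPM. *Mmp13*, the collagenase of hypertrophic cartilage, had 8.96 and 44.8 CPM, and *Mmp14*, a membrane-bound collagenase, had 84.6 and 234 CPM. Among the 7 proteases tested, 4 were more than 2-fold higher in replicate 2 (*Adamts12*, *Mmp3*, *Mmp13* and *Mmp14*) and 1 more than 2-fold lower, against 7.43% and 6.06% of all genes. The latter was *Htra1*, a secreted serine protease, with 273 and 81.9 CPM. Of the 5 osteoblast markers, 4 were tested, and 3 of these were more than 2-fold higher in replicate 2 after centring, against 7.43% of all genes. The 5 markers summed to 4.86 and 52.7 CPM, of which *Dmp1* gave 0.116 and 40.4 CPM. Their part in the differences of the proteases was not tested.

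The genes for protein folding in the endoplasmic reticulum, the compartment in which COMP pentamers are assembled, were all present. Each of the 19 reached at least 1 CPM in both libraries, against 50.3% of all genes listed. After centring, 0 of the 19 were past 2-fold in either direction, against 7.43% of all genes higher and 6.06% lower, and their median log2 ratio was 0.15. *Serpinh1*, the collagen chaperone HSP47, had 2403 and 2712 CPM, and *P4hb*, a disulfide isomerase, had 1429 and 1813 CPM. *Hspa5*, the chaperone BiP, had 742 and 1045 CPM. *Ddit3*, a transcription factor gene raised by folding stress, had 58.0 and 48.9 CPM.

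All 9 genes listed under TGF-β latency and activation reached at least 1 CPM in both libraries, against 50.3% of all genes listed. *Tgfb1*, the ligand whose latent form thrombospondin-1 can activate, had 97.8 and 183 CPM. *Ltbp1* and *Ltbp2*, genes of the latent TGF-β binding protein family, were over 2-fold higher in replicate 2 after centring. Their log2 ratios were 1.26 and 1.01, which is 2 of 9 against 7.43% of all genes. The log2 ratio of *Thbs1* was 0.12 beside a median of 0.10 for the list.

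**Figure D4:**
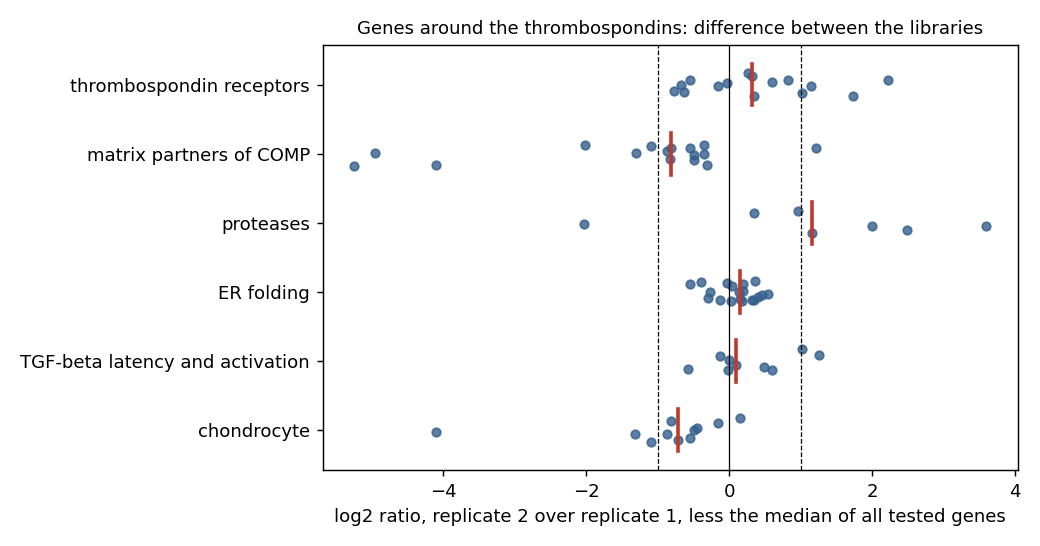
Log2 ratio of replicate 2 to replicate 1, less the median of all tested genes, for the tested genes of each list (points) with the list's median (red bar) and dashed lines at 2-fold. The matrix partners of COMP and the chondrocyte markers have medians of -0.82 and -0.71, the folding genes stay within 2-fold, and the proteases have a median of 1.16.

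Thrombospondin genes are also used by cells other than chondrocytes, and markers of these were read beside the members. *Thbs1* is released by platelets and made by endothelium, and the sort against CD31, Ter119 and CD45 would remove endothelial cells, red cells and leukocytes. Of the 4 endothelial markers, *Cdh5*, *Kdr* and *Tek* were listed at 0 in both libraries and *Pecam1* had 0.231 and 0.166 CPM. Of the 4 platelet and megakaryocyte markers, *Pf4*, *Gp9* and *Ppbp* were listed at 0 in both and *Itga2b* had 1.25 and 1.42 CPM. The 2 leukocyte markers listed, *Ptprc* and *Itgam*, gave a sum of 0.0231 and 0.0474 CPM. *Thbs1* stood at 4022 and 5404 CPM in the same libraries. Low endothelial and leukocyte markers are what the sort would leave, and the part of other cells in the level of *Thbs1* was not tested.

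*Thbs4* and *Comp* are known from tendon, and *Thbs4* from muscle. The tendon markers *Tnmd* and *Kera* were listed at 0 in both libraries. *Scx*, a transcription factor of tendon, had 35.3 and 30.9 CPM, *Mkx* had 15.2 and 16.4 CPM, and *Egr1* had 112 and 45.7 CPM. *Fmod*, which cartilage also expresses, had 3462 and 2934 CPM. The 6 tendon and ligament markers summed to 3625 and 3027 CPM. The 4 skeletal muscle markers listed summed to 0.214 and 0.888 CPM. Among the 6 fibroblast markers, *Col1a1* and *Col3a1* made up most of the sum, which was 1799 and 1085 CPM. *Fap* had 14.3 and 27.4 CPM, *Pdgfra* had 2.03 and 2.71 CPM, and *Thy1* had 0.208 and 0 CPM. *Pi16* was listed at 0 in both. The part of fibroblasts or tendon cells in the levels of *Comp*, *Thbs1* and *Thbs2* was not tested.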

How the data were processed

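Poly(A) RNA of 2 libraries was sequenced as single-end reads of 50 bases in stranded libraries. The authors aligned the reads with STAR 2.7.3a to GRCm38 with GENCODE M25 in Partek Flow 10.0.21.0801, quantified genes by Partek E/M and normalized the result, and the deposited values are CPM. An offset of 0.0001 CPM on every value was subtracted. Low values were whole multiples of 1 read, within 0.02 reads, for 63.9% in replicate 1 and 62.9% in replicate 2, so whole reads could not be restored and tests on counts were not used. Means and SDs were computed from the CPM. Ratios between libraries used a pseudocount of 0.1 CPM, which understates the change of low genes, and were centred on the median of 12631 genes that averaged 1 CPM or more.

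Lengths, coordinates and transcripts come from GENCODE M21 on GRCm38, in which 22967 gene names (97.2%) matched 1 gene. Proteins were translated from its coding sequences, since no protein table was used, and aligned with BLOSUM62. Named genes are the 5 members, genes of the partner and marker lists, and the 2 genes nearest to each member in level. Members and lists were chosen with earlier results of these data known. *Myh4* and *Cd3e* are not among the genes listed, and *Ero1a* and *Ero1b* were matched by older symbols. Alternatives covered scaling, length, pseudocount, filter and leaving out each library. The ratio step was tested on simulated data. The scripts ran in Python 3.11.15 with biopython 1.88, matplotlib 3.10.9, scipy 1.17.1, pandas 2.3.3 and numpy 2.4.6.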

Additional observations from a re-analysis of the deposited data

How the results depend on the processing

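Changing 1 processing choice at a time gave 77 further values for 19 results. In 49 of these values no library was left out. Of the 49, 38 kept their direction and side of the 2-fold line or stayed within the SD of the 2 libraries. Part of this count was fixed by arithmetic. The geometric mean of 2 values always lies within 1 SD of their mean. A pseudocount of 1 CPM is too small to alter the uncentred ratios of genes as high as *Comp* and *Thbs1*. It moved their centred ratios through the median of all genes, from -0.837 to -0.814 for *Comp* and from 0.122 to 0.145 for *Thbs1*. Factors that raise 1 library and lower the other also move their mean little. The count of 38 is therefore no measure of robustness. The 10 highest genes by mean CPM include *Comp*, which ranked 8. When the total omitted these genes, the means were 15597 CPM for *Comp*, 7661 for *Thbs1*, 277 for *Thbs2* and 87.2 for *Thbs3*, as a smaller total requires. Without division by length, the log2 ratio of *Comp* was 0.98 to *Thbs1*, 5.79 to *Thbs2* and 7.44 to *Thbs3*, and its share in the family was 65.0%. The lower bound of the log2 ratio of *Comp* to *Thbs4* in replicate 2 was 16.87 by exonic length, 16.72 without length and 17.12 with the longest coding transcript. Without centring, the log2 ratio of *Thbs3* between the libraries turned from -0.17 to 0.14. Leaving out a library gave medians of 88.0 to 153.8 CPM for the receptor list, 4.82 to 12.6 CPM for the proteases, 835 to 1524 CPM for the matrix partners, 238 to 289 CPM for the folding genes and 97.8 to 183 CPM for the TGF-β genes. Without replicate 2, the median of the receptors was 88.0 CPM in place of 146 CPM and that of the proteases 4.82 CPM in place of 8.62 CPM. For the levels, ratios and share of the members, which are means of 2 libraries, leaving out 1 moves the value by less than 1 SD by arithmetic alone. Nothing could be computed for the geometric mean of *Thbs4*, its ratio between libraries, or the bound without a library. Protein levels and other conditions were not analysed here.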
